A study of Mus musculus with 60 samples.

Results

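The phylum Actinobacteriota was followed across the mouse gut, lung and mouth in a 16S amplicon study of plastic nanoparticles. Its members were the sequence features whose deposited lineage names Actinobacteriota, without the family Bifidobacteriaceae and without the genus Leifsonia. A feature is 1 distinct amplicon sequence. The rule found 371 features under 79 genus labels, of 8574 features in all and 7922 that were placed among prokaryotes. Of 393 Actinobacteriota features, it left out 21 of Bifidobacteriaceae and 1 of Leifsonia. The members held 78374 counts, or 0.456% of all counts, so every share below is a small part of its library.

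Actinobacteriota are bacteria whose DNA is rich in G and C, and mammals carry separate branches of them on different surfaces. The class Coriobacteriia holds anaerobes of the gut and mouth that transform bile acids and plant polyphenols. The class Actinobacteria holds the oil-loving residents of skin, the plaque formers of the mouth and many soil and dust bacteria. Skin genera of this class are also frequent traces in reagents, which weigh most in samples with little bacterial DNA.

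The mice were male, 6 per arm. The PET arm received nanoparticles of polyethylene terephthalate, the polyester of bottles and textiles, at 0.5 mg a day in 0.1 ml by gavage for 28 days, and the control arm was not exposed. Each arm gave 6 libraries of stool after 1 week, and 6 each of stool, colon tissue, lung tissue and oral swab at day 28, which makes 60 libraries in 10 groups. No strain, age or vehicle is given in the labels. Stool and oral swabs were extracted with a PowerSoil kit and colon and lung with a Blood and Tissue kit, so that kit and site cannot be told apart in any contrast that crosses these pairs. The labels link no library with a particular mouse, so replicate numbers only name libraries. With 6 mice per arm, the same mice would recur across sites and times, but the site and time fits treated all libraries as independent. The p-values set differences against the spread between these libraries and take no account of shared mice.

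Depth was uneven. Totals ran from 16521 to 1083575 counts in stool, 59063 to 280575 in colon, 10543 to 326834 in lung and 119454 to 428830 in oral swabs. No library repeated another, since the closest pair lay at a Bray-Curtis distance of 0.0789. The oral swab label was set beside 3 genera of the rodent mouth, Muribacter, Streptococcus and Rodentibacter, which summed to 40.8% to 95.5% of oral swab libraries. The same genera reached at most 0.078% of day 28 stool, 0.356% of colon and 4.83% of lung libraries. They were chosen with earlier results of these data known, and do not check the stool, colon and lung labels against each other. Shares are percent of the prokaryote counts of a library. A higher share can come from more of the taxon or from less of the rest, and from these counts the readings cannot be told apart.

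Members made up far more of lung libraries than of any other. The summed share ran from 0.319% to 7.84% over the 12 lung libraries, with a median of 3.2%. In day 28 stool it ran from 0.0688% to 0.368%, with a median of 0.153%. Colon ran from 0.0171% to 1.76% with a median of 0.176%, and oral swabs from 0.0412% to 0.786% with a median of 0.132%. All lung libraries but 1 lay above every stool library, and the lung control library at 0.319% lay within their range.

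Between arms, the summed share overlapped at every site. It was 0.111% ± 0.0441 (SD, n = 6) in control and 0.172% ± 0.036 (SD, n = 6) in PET stool after 1 week. At day 28 it was 0.145% ± 0.0518 in control and 0.201% ± 0.0913 in PET stool. Lung held 3.01% ± 2.23 in control and 4.47% ± 2.39 in PET libraries, and oral swabs 0.239% ± 0.265 and 0.305% ± 0.351. Colon held 0.364% ± 0.686 in control and 0.353% ± 0.186 in PET libraries, all as mean ± SD of 6. The control colon mean rests on control library 2, at 1.76% with a 95% Wilson interval of 1.70% to 1.82%, and the other 5 averaged 0.0844%. No test was run on these sums.

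Coriobacteriia and Actinobacteria held nearly equal numbers of counts but different sites. Coriobacteriia had 20 genus labels and 38507 counts, 49.1% of the members' counts, and were found in all 60 libraries. Actinobacteria had 49 labels and 37719 counts, 48.1% of the total, in 38 libraries. Those were all 12 lung libraries, all 12 oral swabs, 5 of 12 colon libraries and 9 of 24 stool libraries. In stool the class never passed 0.00702% of a library, which leaves stool Actinobacteriota almost wholly coriobacterial.

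The make-up of the members' counts therefore turned over between sites. Coriobacteriia gave 98.8% of them in stool after 1 week, 99.8% in day 28 stool and 80.8% in colon. They gave 28.4% in lung and 38% in oral swabs, where class Actinobacteria gave 67.4% and 60.4%. By library, class Actinobacteria ran from 0.0477% to 7.16% in lung, with a median of 1.16%, and from 0.0371% to 0.709% in oral swabs, with a median of 0.071%. Every oral swab and every lung library lay above every stool library in this class.

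**Figure D1:**
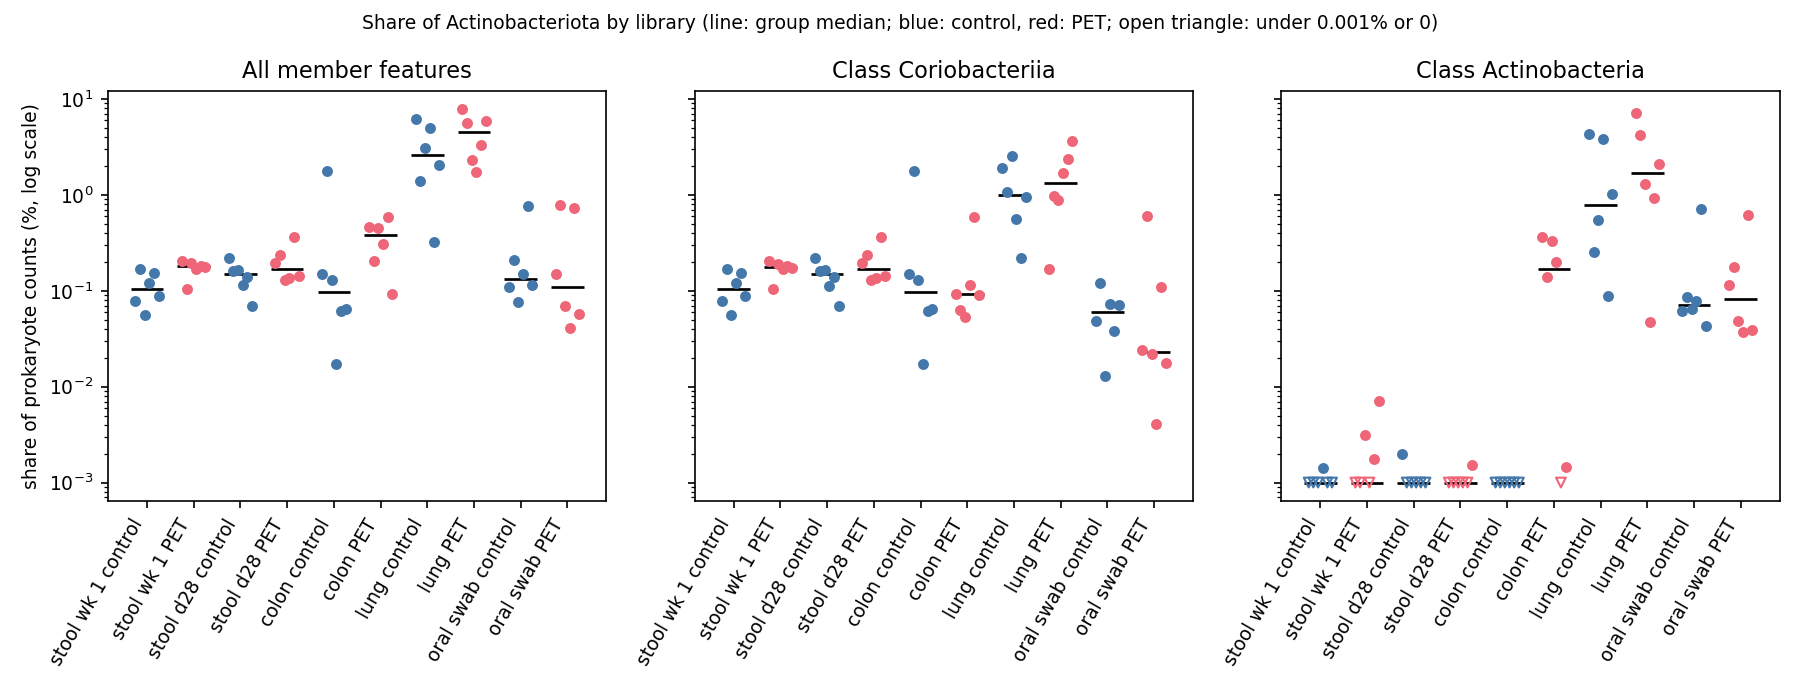
Share of prokaryote counts (percent, log scale) held by all members, by Coriobacteriia and by Actinobacteria in each of 60 libraries, by group, with the group median as a line, control in blue and PET in red. Lung medians stand highest in each panel, at 3.2% over both arms for all members, and control colon has no count of Actinobacteria.

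The other classes were small and mostly found in lung. Thermoleophilia, a class described mainly from soil, held 926 counts in 20 features, in 6 lung, 5 oral swab and 1 colon libraries. An uncultured class known by a clone name held 613 counts in 5 lung libraries and 1 oral swab. Rubrobacteria, known for radiation-resistant species, held 492 counts in 4 lung libraries and none elsewhere. Acidimicrobiia were found in 4 libraries. None of the 4 classes had a count in any of 24 stool libraries.

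Member features were scattered. Of 371, 303 were found in 1 library only, or 81.7%, against 73.8% of all prokaryote features. Such features held 23% of the members' counts but 2.15% of all prokaryote counts. Features seen at all 4 sites numbered 4, or 1.08%, against 4.37% of all prokaryote features. Lung carried 229 member features, of which 192 were found at no other site, or 83.8%, against 75.3% of all lung features. Of the oral swab member features 66.4% were at no other site, against 44.9% of all oral features. Of 66 in colon 33 were, against 31.6% of all colon features. Stool went the other way, with 19 of 43 member features at no other site, or 44.2%, against 64.9% of all stool features. These shares are descriptions without a test, and rarely seen features depend on depth.

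**Figure D2:**
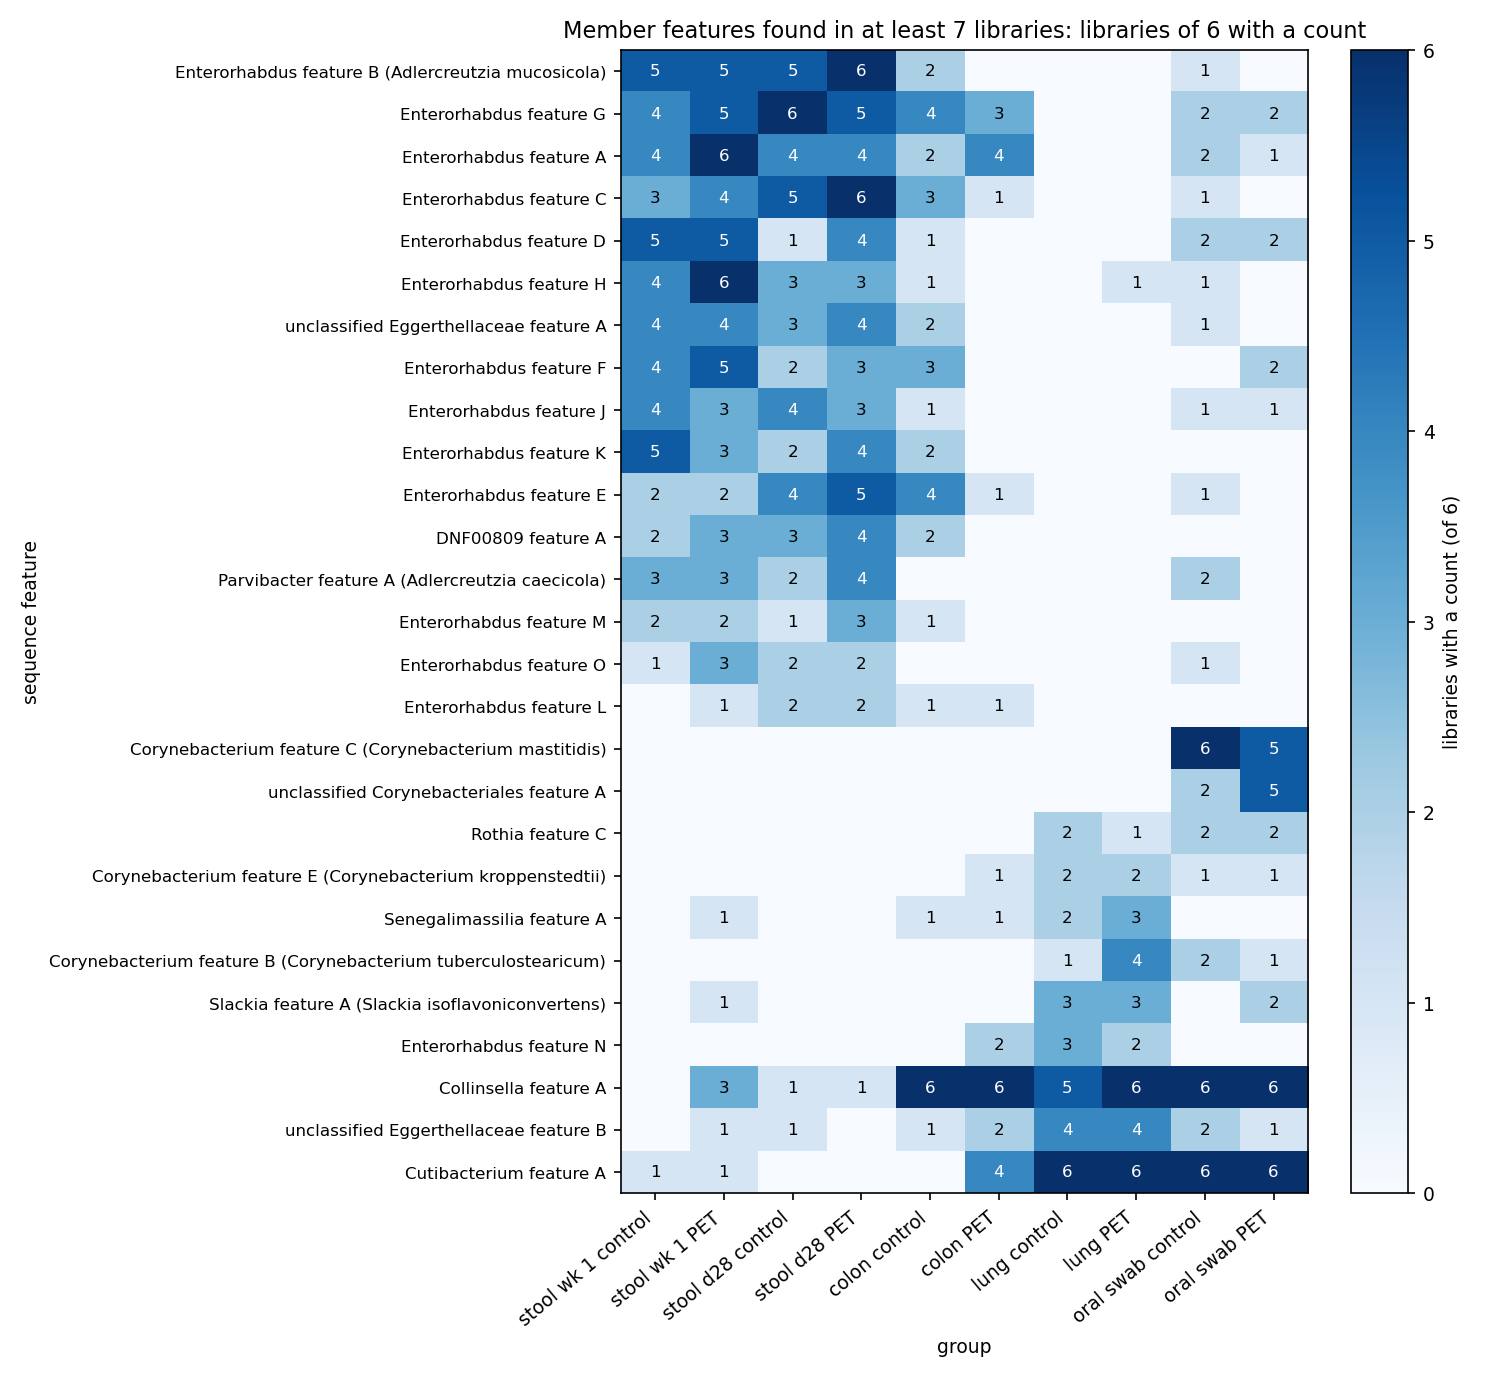
Number of libraries of 6 with a count, for each member feature found in at least 7 libraries, by group, with features named by genus, letter and species label. Enterorhabdus features fill the stool columns, while Collinsella feature A fills the colon, lung and oral columns. Cutibacterium feature A fills the lung and oral columns, and in colon is found in 4 PET libraries and no control library.

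Named genus labels were those of high mean share, over all libraries or within a sample type, and those past the test's threshold. They numbered 29 and held 96.1% of the members' counts. The other 50 held 3074 counts, 2 to 677 each, and 33 of them were found in 1 library.

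Enterorhabdus, a gut anaerobe first isolated from mice, was the coriobacterium of stool. It held 21126 counts in 24 features, 27% of the members' counts, and was found in 55 of 60 libraries. It gave 89.5% of the members' counts in stool after 1 week and 92.5% at day 28. Its stool share ran from 0.0542% to 0.186% after 1 week and from 0.0688% to 0.351% at day 28, with medians of 0.146% and 0.145%, and no stool library lacked it. The genus was thus a constant of stool, at both times and in both arms.

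At the other sites Enterorhabdus was lower or patchy. Colon ran from 0% to 1.56% with a median of 0.0427%, lung from 0% to 0.407% with a median of 0.0897%, and oral swabs from 0% to 0.0972% with a median of 0.00619%. Colon control library 2, at 1.56%, held 12.9% of all its counts. None of these site differences passed the test described below.

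The label hid different sequences in gut and lung. Stool held 16 Enterorhabdus features, and those also seen in colon made up 98.6% of its stool counts. Those also seen in oral swabs made up 91.2%, and the 1 also seen in lung 7.09%. Lung held 1168 counts in 6 features, of which 28 counts, or 2.40%, were in the feature shared with stool. In oral swabs 91.6% of the genus' counts were in features also found in stool. Enterorhabdus feature I, with 834 counts, was found in 4 lung libraries and 2 oral swabs but in no gut library, and feature N, with 290 counts, in 5 lung and 2 PET colon libraries.

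Unclassified Eggerthellaceae, relatives of Enterorhabdus without a genus name, showed such a split only in part. Feature A held 420 counts and was found in 15 of 24 stool libraries and in no lung library. Feature B held 402 counts and was found in 8 of 12 lung libraries and in 2 of 24 stool libraries. Parvibacter, another coriobacterium of the mouse gut, was 1 feature in 12 stool libraries and 2 control oral swabs. DNF00809, an uncultured genus of the family Eggerthellaceae, was found in 12 stool and 2 control colon libraries. Neither Parvibacter nor DNF00809 had a count in lung.

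Collinsella, a saccharolytic gut genus, showed the reverse of Enterorhabdus. It held 12056 counts in 8 features, and feature A alone held 98.7% of them and was found in 40 libraries. It was found in 8 of 24 stool libraries but in all 12 colon libraries, 11 of 12 lung libraries and all 12 oral swabs. Its share ran from 0% to 2.14% in lung with a median of 0.66%, from 0.00745% to 0.297% in colon with a median of 0.0203%, and from 0.00351% to 0.566% in oral swabs with a median of 0.0181%. In day 28 stool 9 of 12 libraries had no count, and the highest reached 0.0198%. Most colon and oral swab libraries therefore carried more Collinsella than stool, with overlap at the low end.

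Further coriobacteria were concentrated in lung. Senegalimassilia, a gut genus named after a human isolate, was found in 9 lung, 3 oral swab, 2 colon and 3 stool libraries. Slackia, which includes degraders of isoflavones, held 579 counts, of which 75.6% came from lung control library 1. Olsenella, an acid former of the mouth and rumen, held 1351 counts in 13 libraries, of which 51.9% came from PET lung library 4. Feature A of Olsenella, labelled Olsenella umbonata, held 69.9% of the genus in 2 lung libraries. Adlercreutzia and Eggerthella, gut genera known for transforming drugs or isoflavones, were found in 7 and 6 libraries, mainly lung. Of these, Senegalimassilia was the most evenly spread, with 14.2% of its counts in its highest library.

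**Figure D3:**
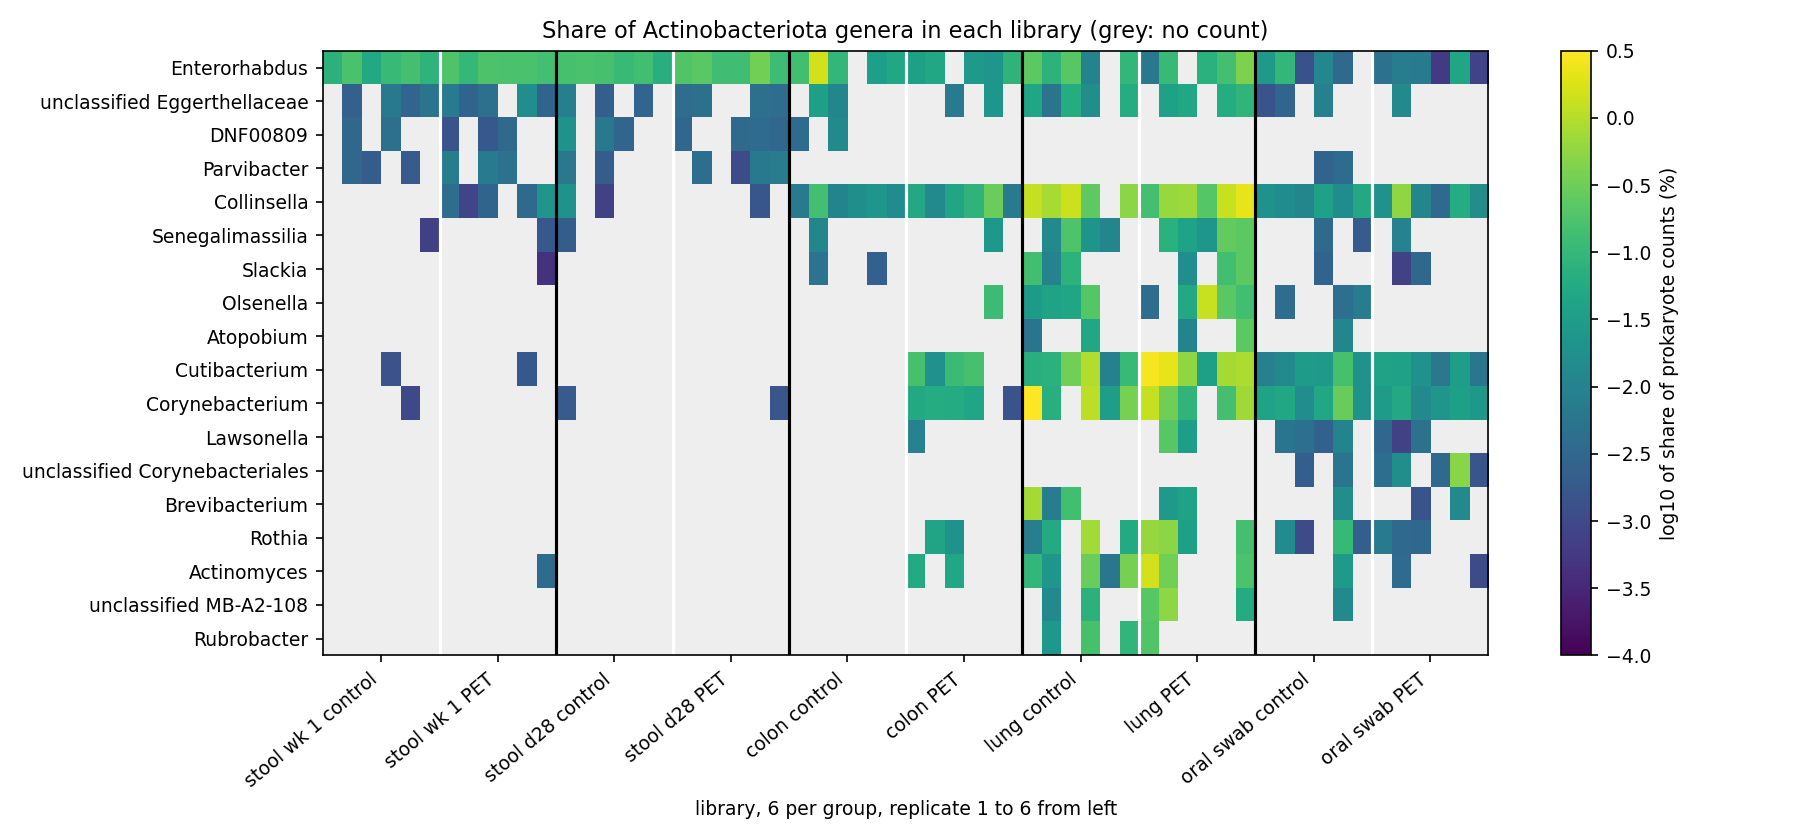
Log10 of the share of prokaryote counts (percent) for member genera in each of 60 libraries, 6 per group in replicate order, with grey where a genus had no count. Enterorhabdus is filled across the stool columns, Collinsella, Corynebacterium and Cutibacterium across lung and oral swabs, and control colon is grey for Corynebacterium and Cutibacterium.

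Corynebacterium, a genus of skin, nose and dental plaque, was the most diverse member. It held 16153 counts in 76 features, 20.6% of the members' counts, and 60 of those features were found in 1 library each. It was found in all 12 oral swabs, 10 of 12 lung libraries, 5 of 12 colon libraries and 3 of 24 stool libraries. Oral swabs ran from 0.0135% to 0.282% with a median of 0.0337%. Lung ran from 0% to 3.2% with a median of 0.24%, and lung control library 1 alone held 63.6% of all counts of the genus. Control oral swab library 5, at 0.282%, also stood far above the other 5 of its group, which averaged 0.0346%. The genus was thus found in every oral swab, but its level was uneven at both sites.

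Some of its species labels differed between sites. Corynebacterium mastitidis, known from mouse skin and eyes, held 1658 of the 2235 oral counts, in 11 of 12 oral swabs and at no other site. It ran from 0.0158% to 0.227% in control and from 0% to 0.0227% in PET oral swabs, with medians of 0.0407% and 0.0124%. Control library 5 was highest, and the arms overlapped. Corynebacterium jeikeium, a lipid-requiring skin species of humans, held 4169 counts, of which 4163 were in lung control library 1 and 6 in PET lung library 1. Corynebacterium tuberculostearicum, another skin species, held 3263 counts, of which 3097 were in that same control lung library and 60 in 3 oral swabs. Other labels were shared between sites, such as Corynebacterium kroppenstedtii, found in 6 lung, 3 colon and 2 oral swab libraries.

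Dental plaque species formed another set. Corynebacterium matruchotii, a backbone species of human plaque, held 1720 counts in 23 features, with 1568 in 8 lung libraries, 36 in 1 oral swab and the rest in 3 PET colon libraries. Corynebacterium durum, also of plaque, held 679 counts, with 652 in lung and 27 in 1 PET colon library. Mouse oral swabs thus held little of the plaque species that lung libraries held. Species labels are the deposited classifier's and rest on a short amplicon.

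**Figure D4:**
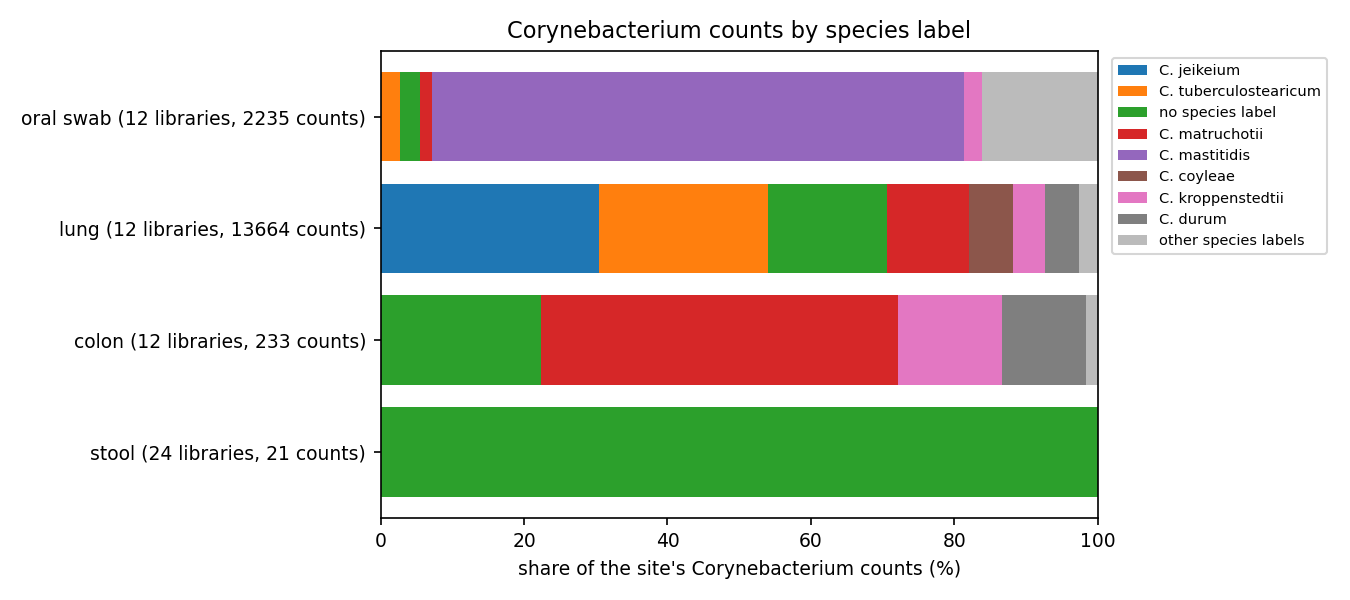
Share of each site's Corynebacterium counts (percent) by species label, with the number of libraries and counts of each site beside its bar. Corynebacterium mastitidis fills most of the oral swab bar and is missing from lung and colon, and C. matruchotii is the longest part of the colon bar.

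Cutibacterium, the lipid-feeding anaerobe of human hair follicles, was nearly 1 sequence. It held 8032 counts in 3 features, and feature A held 98.2%. It was found in all 12 lung libraries, all 12 oral swabs, 4 of 12 colon libraries and 2 of 24 stool libraries. Lung ran from 0.00956% to 0.974% in control and from 0.0363% to 2.77% in PET libraries, with medians of 0.0934% and 0.838%. Oral swabs ran from 0.00581% to 0.154%, with a median of 0.0229%. Lung libraries reached higher than oral swabs, but the lowest lung libraries lay among them.

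Plaque and saliva genera of the same class were led by lung. Actinomyces, an early colonizer of teeth, held 3088 counts in 48 features, 47 of which were found in 1 library each, and PET lung library 1 held 62.1% of its counts. Rothia, a nitrate reducer of the tongue and saliva, held 2600 counts in 22 features. Rothia nasimurium, a species isolated from mouse noses, was seen in 2 control oral swabs and nowhere else, with 380 counts. Brevibacterium, a skin genus, had 93.4% of 2667 counts in lung control library 1.

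A member without a genus name was found in oral swabs alone. A single feature placed in the order Corynebacteriales without a genus held 797 counts, in 2 control and 5 PET oral swabs. Its share ran from 0% to 0.00537% in control and from 0% to 0.502% in PET oral swabs, with medians of 0% and 0.00385%. PET library 5 held 84.9% of its counts.

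Members were also summed by habitat, with lists drawn from textbook knowledge. Gut members (16 of 20 listed genera in the table) had a median of 0.152% in day 28 stool, 0.0916% in colon, 0.967% in lung and 0.0366% in oral swabs. Skin members (7 of 11) had medians of 0%, 0%, 0.865% and 0.0616% in that order, and mouth members (5 of 9, with both plaque Corynebacterium species) medians of 0%, 0%, 0.553% and 0.00217%. Soil, water and dust members (19 of 38) were found in 9 of 12 lung libraries at up to 0.535%, and in 2 of 12 day 28 stool libraries at up to 0.000816%. Lung thus had the highest median of every habitat list at day 28. The skin and mouth lists share the plaque species of Corynebacterium.

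Companion lists of non-members were set beside them. Their genera are of other phyla, except Leifsonia on the reagent list, the Actinobacteriota genus that the membership rule left out. Its part in the reagent sums is not given separately. Common reagent genera (8 of 10 in the table) summed to 0.903% to 29.8% of lung libraries, 0.185% to 5.15% of colon, 0.118% to 2.7% of oral swabs and 0% to 1.31% of day 28 stool. Human gut genera (5 of 5) summed to 1.29% to 35.9% of lung and 0% to 0.166% of day 28 stool. Human oral genera such as Neisseria and Fusobacterium (9 of 9) summed to 0.0515% to 29% of lung libraries and 0% to 5.66% of oral swabs. Staphylococcus, a skin genus, reached 1.42% in lung and 0.454% in oral swabs. The part of these genera in the levels of the members was not tested.

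Sites were compared at day 28 on counts summed by genus, over 313 genera of which 32 were members, with the quasi-likelihood test of edgeR and arms weighted equally. An adjusted p under 0.05, by the Benjamini-Hochberg method over all 313, counts as past the threshold. Where a group had no count, its share was taken as 3 counts over the whole group, which gives a lower bound of the fold. The fitted log2 differences of such genera depend on the tool's prior count and are no bounds. Genera entered by their counts over all day 28 libraries together. One found at a single site, such as Rubrobacter or unclassified Actinobacteria in lung, could therefore only be called higher there. Likewise, a genus without a count at a site could only be called lower there.

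Lung differed most from stool. Of 32 members 22 were higher and 2 lower in lung, beside 70.9% of all genera past the threshold in either direction, 58.1% as higher and 12.8% as lower. The median log2 difference was 7.76 for the members and 6.07 for all genera, so most genera of any phylum shifted upward in this contrast. With zero groups set at their floor, the medians of pooled shares were 8.70 and 7.01. The members' share past the threshold, 75.0%, stood near that background. The size of this shift depends on the scaling: the all-genera median was 6.33 when scaled by library totals, 4.94 by DESeq2's size factors and 4.55 by TMMwsp. On centred log ratios it was 0.47, and limma called 9 members higher and 3 lower.

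Cutibacterium separated lung from stool without overlap. It was found in 12 of 12 lung and 0 of 12 day 28 stool libraries, and its pooled share was at least 9871-fold higher in lung, or 5090.4-fold without PET lung library 1 (log2 difference 13.57 ± 1.56 SE, adjusted p = 7.67e-10). Corynebacterium was 3791-fold higher (log2 10.87 ± 1.66, adjusted p = 1.62e-07), in 10 of 12 lung against 2 of 12 stool libraries. That fold was 1335-fold without control lung library 1 and 11385-fold without control stool library 1. Collinsella was 289-fold higher (log2 8.56 ± 1.47, adjusted p = 1.24e-06), and 3020-fold without control stool library 1, which held most of its few stool counts. Actinomyces was at least 4400.2-fold higher and Rothia at least 3128-fold, each in 8 of 12 lung and 0 of 12 stool libraries. The bound fell to 1560.4-fold for Actinomyces without PET lung library 1 and to 1959-fold for Rothia without control lung library 4. Olsenella was at least 1932-fold higher and Slackia at least 849-fold, and 872-fold and 227-fold without their highest libraries, PET lung library 4 and control lung library 1. These 7 genera stayed past the threshold under every alternative setting and every left-out library. Of them, Cutibacterium, Actinomyces, Rothia, Olsenella and Slackia had no count in day 28 stool. Their direction was thus fixed in advance, and its persistence is no added support.

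The members lower in lung were DNF00809, at least 15.8-fold (7.84-fold without control stool library 1), and Parvibacter, at least 8.69-fold. Both had 0 of 12 lung libraries with a count, against 7 and 6 of 12 stool libraries, and could thus only be called lower in lung. The other members higher in lung included Brevibacterium, Eggerthella, Libanicoccus and Senegalimassilia, a genus 88.2-fold higher, or at least 337-fold without control stool library 1, the only stool library that held it at day 28. The size of the Brevibacterium difference rested on 1 library, with a bound of 4040.2-fold in all lung libraries and 178-fold without control library 1, while its call held whichever library was left out. Of 24 members past the threshold, 19 stayed there whichever library was left out.

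Oral swabs differed from stool in 15 members, 14 higher and 1 lower, beside 49.5% of all genera past the threshold, 38.3% as higher and 11.2% as lower. The members' share was 46.9%, and their median log2 difference was 3.67 against 2.82 for all genera. With library totals the split was 14 higher and 3 lower, and with limma on centred log ratios 6 and 3. Corynebacterium was 186-fold higher (log2 9.11 ± 1.55, adjusted p = 2.53e-06) and Cutibacterium at least 619-fold (log2 10.98 ± 1.41, adjusted p = 9.69e-09, 348-fold without control library 5). The Corynebacterium fold was 96.7-fold without control oral library 5 and 558-fold without control stool library 1. In both genera every oral swab lay above every day 28 stool library. Lawsonella, a relative of Corynebacterium, was at least 52.3-fold higher in 7 of 12 oral swabs against 0 of 12 stool libraries, and at least 34.7-fold without control library 5. Rothia was at least 252-fold higher and the unclassified Corynebacteriales feature at least 376-fold. Those bounds fell to 50.2-fold without control library 5 and 58.7-fold without PET library 5. Collinsella was 31.8-fold higher, with 8.23-fold without PET oral library 2 and 332.4-fold without control stool library 1. DNF00809 was at least 52.6-fold lower, or 26.2-fold without that stool library.

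Colon differed from stool in 3 of 32 members, beside 22.7% of all genera, 19.2% as higher and 3.51% as lower. Collinsella was 16.8-fold higher in colon (log2 6.71 ± 1.36, adjusted p = 8.88e-05), in 12 of 12 colon and 3 of 12 stool libraries. Without control stool library 1 the fold was 175-fold. In the control arm alone its adjusted p was 0.294. Parvibacter was at least 13.7-fold lower, with 0 of 12 colon against 6 of 12 stool libraries. Senegalimassilia was 7.82-fold higher on 34 counts in 2 colon libraries, with 3.58-fold without control colon library 2, 4.75-fold without PET colon library 5 and at least 29.9-fold without control stool library 1. The split was 2 higher and 1 lower here, 8 and 0 with DESeq2 and 3 and 3 with limma on centred log ratios. The median log2 difference was 2.45 for the members and 1.45 for all genera. Enterorhabdus, DNF00809 and unclassified Eggerthellaceae did not pass in this contrast.

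Lung exceeded colon in 17 of 32 members and fell below it in 0, beside 46% of all genera past the threshold, 39% as higher and 7.03% as lower. Corynebacterium was 92.5-fold higher, Actinomyces 39.4-fold and Cutibacterium 23.2-fold, and these 3 calls held under every setting and left-out library. Their sizes moved more: Corynebacterium was 32.6-fold without control lung library 1. Actinomyces was 13.98-fold without PET lung library 1, and 86.03-fold and 65.1-fold without PET colon libraries 1 and 3. Cutibacterium was 11.96-fold without PET lung library 1 and 36.8-fold without PET colon library 1. DESeq2 called 5 members higher and 1 lower, and limma 4 and 1. The medians were 5.43 for the members and 3.23 for all genera. Oral swabs exceeded colon in 5 members, beside 13.4% of all genera (9.58% as higher and 3.83% as lower), with Corynebacterium 4.53-fold and Cutibacterium 1.45-fold higher in pooled share. Without control oral library 5 these were 2.36-fold and 0.818-fold, so that the pooled Cutibacterium share turned, and without PET colon library 1 Cutibacterium was 2.30-fold higher. Their fitted log2 differences were 6.46 ± 1.55 and 4.997 ± 1.36, an average over arms of which control colon had no count of either genus.

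Lung and oral swabs differed in 13 of 32 members, 12 higher in lung and 1 lower, beside 39.9% of all genera, 30.4% as higher and 9.58% as lower. The split turned with the scaling, to 8 and 3 with TMMwsp, 1 and 2 with DESeq2 and 3 and 2 with limma on centred log ratios. Olsenella was 77.4-fold higher in lung (log2 7.16 ± 1.96, adjusted p = 0.004), or 34.9-fold without PET lung library 4. The unclassified Corynebacteriales feature was at least 79.6-fold lower in lung (log2 -8.69 ± 2.17, adjusted p = 0.00238), with 0 of 12 lung and 7 of 12 oral libraries, and the bound was 12.4-fold without PET oral library 5. That feature was the 1 member of the 13 that stayed past the threshold under every setting. Cutibacterium passed at an adjusted p of 0.0457 but its log2 difference of 2.59 became -0.20 without the low count filter. Corynebacterium did not pass in this contrast.

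Exposure was tested within each site and time, with 6 control against 6 PET libraries. With edgeR as described above, genera passed in colon alone: 22 genera, or 15.8%, of which 19 were higher and 3 lower in PET libraries. The colon count depends on the setting, with 17 genera by TMMwsp or library totals, 10 by DESeq2, 1 by limma and 3 under the stricter filter, where 33.3% of the calls were higher. In lung DESeq2 called 4 genera and edgeR 1 without the low count filter, none of them members. Whether the colon effect differs from that at other sites was not tested. Of 5 members tested there, 2 were higher and 0 lower, beside 13.7% of all genera called higher and 2.16% called lower. The median log2 difference was 0.62 for the 5 members and 0.63 for all genera. With so few members tested, their count says little against that background.

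Corynebacterium and Cutibacterium were the 2. In control colon neither had a count in any of 6 libraries. Both thus entered this fit through PET libraries alone and could only be called higher. In PET colon Corynebacterium had 60, 81, 56, 32, 0 and 4 counts in libraries 1 to 6, which are 0.0538%, 0.0609%, 0.0578%, 0.0439%, 0% and 0.00144%. Cutibacterium had 427 counts, and its shares were 0.157%, 0.0188%, 0.119%, 0.154%, 0% and 0%. PET libraries 1 to 4 thus held both genera, library 5 neither and library 6 a trace of 1, and the arms overlap at 0. A count of 0 in library 5, the shallowest, allows a share of up to 0.00537%.

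The pooled share of Corynebacterium was at least 101.3-fold higher in PET colon, 80.4-fold without library 2 and 159-fold without library 6 (log2 9.32 ± 2.67 SE, edgeR adjusted p = 0.0106). Cutibacterium was at least 186-fold higher, 128.8-fold without library 1 and 296-fold without library 6 (log2 10.33 ± 2.54, adjusted p = 0.0034). Both stayed past the threshold in 12 of 12 fits that left out 1 library. Neither passed with limma on centred log ratios (adjusted p = 0.27 and 0.389), and neither was common enough to be tested under the stricter filter.

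Other members were also found in PET colon. Class Actinobacteria as a whole had 1062 counts in 5 of 6 PET colon libraries, at 0.173% ± 0.157 (SD, n = 6), and none in control colon. Mouth members were found in 5 of 6 PET and 0 of 6 control colon libraries, at up to 0.144%. Actinomyces and Rothia were each in 2 PET colon libraries. Olsenella, on the mouth list but of class Coriobacteriia, was in PET library 5 alone, at 0.124%. That library had no count of Corynebacterium or Cutibacterium. In all, PET colon held 53 member features and 23 genus labels, and control colon 21 and 8. The same numbers are not given here for all prokaryote features by arm. Whether this gap is particular to the members was not tested.

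Genera of the human mouth from other phyla were highest in PET libraries 1 to 3, which held both Corynebacterium and Cutibacterium. They summed to 1.35%, 1.20%, 0.959%, 0.119%, 0.102% and 0.0190% of PET colon libraries 1 to 6, against 0% to 0.0394% of control colon. The library at 0.119% also held both of these members, and the one at 0.102% neither. All 9 listed genera had a count in PET colon, and 7 of 9 were at 0 in control colon, Neisseria, Fusobacterium, Selenomonas, Leptotrichia, Gemella, Capnocytophaga and Catonella. Reagent genera summed to 0.255% to 3.82% of PET and 0.185% to 5.15% of control colon libraries. Human gut genera reached 15.9% in 1 PET colon library, against at most 1.1% in control colon. Without PET libraries 1 to 3, an alternative chosen after the values were seen, Corynebacterium and Cutibacterium were no longer common enough to be tested, and 2 other genera passed. The part of these genera in the exposure result was not tested.

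The PET colon members were compared with other sites feature by feature. Its 14 Corynebacterium features included C. matruchotii, and held 27 counts of C. durum, 34 of C. kroppenstedtii and none of C. mastitidis, the oral swab species. Of these features 6 were also found in lung, with 48.5% of the counts, 2 in oral swabs with 6.44%, and 0 in stool or control colon. The 0 in control colon was fixed in advance, because that group had no count of the genus. Of all prokaryote features in colon of both arms, 33.37% were also found in lung, 40.02% in oral swabs and 57.55% in stool. Whether the Corynebacterium overlap differs from this background was not tested. Cutibacterium was feature A alone, which lung, oral swabs and 2 stool libraries also held. Of 6 Actinomyces features 1 was also found in lung, and of 4 Rothia features none was found at another site.

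**Figure D5:**
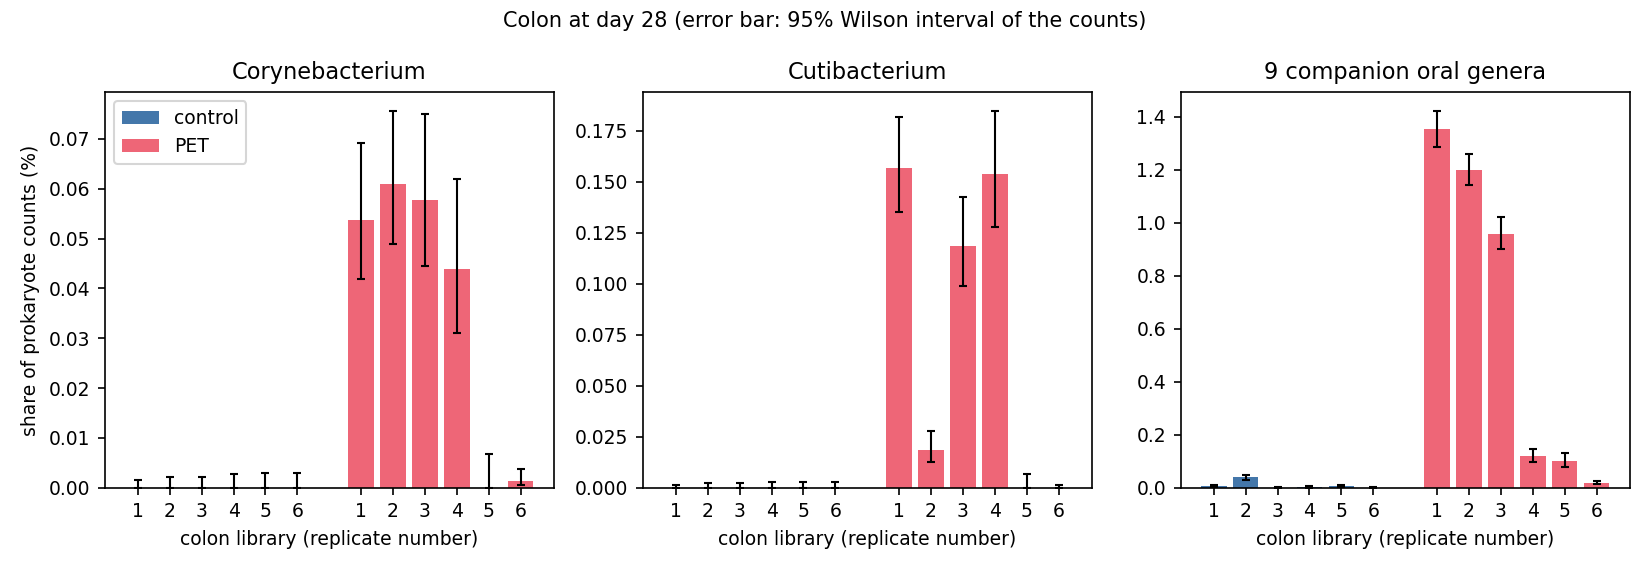
Share of prokaryote counts (percent) in each of 12 colon libraries, control in blue and PET in red, with bars for the 95% Wilson interval of the counts. Control bars stand at 0 for Corynebacterium and Cutibacterium, PET libraries 1 to 4 hold both, and the genera of the human mouth are highest in PET libraries 1 to 3.

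The gut genera of colon did not pass. Enterorhabdus ran from 0% to 1.56% in control and from 0% to 0.0833% in PET colon, with medians of 0.0712% and 0.0314% (log2 -2.51 ± 1.47, adjusted p = 0.406). Collinsella ran from 0.00745% to 0.143% in control and from 0.00754% to 0.297% in PET colon, with medians of 0.0164% and 0.0481% (log2 0.62 ± 1.53, adjusted p = 0.923). Unclassified Eggerthellaceae had counts in 2 of 6 libraries of each arm. Coriobacteriia as a class had medians of 0.097% and 0.0916%.

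In lung 0 of 233 genera (0.0%) and 0 of 23 members passed, with 20 genera and 1 member at an unadjusted p under 0.05. Cutibacterium had a log2 difference of 2.09 ± 1.34 and an adjusted p of 0.773. Corynebacterium differed by -1.37 ± 1.57 (adjusted p = 0.978) and Collinsella by -0.27 ± 1.31 (adjusted p = 0.999). Unclassified Atopobiaceae had the lowest unadjusted p of the members, 0.016, with counts in 3 control and 0 PET lung libraries (adjusted p = 0.261). Cutibacterium levels of the arms overlapped, at 0.00956% to 0.974% in control and 0.0363% to 2.77% in PET lung.

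In oral swabs 0 of 176 genera (0.0%) and 0 of 17 members passed, with 9 genera and 2 members at an unadjusted p under 0.05. Olsenella was found in 3 control and 0 PET oral swabs (adjusted p = 0.488), and the unclassified Corynebacteriales feature in 2 control and 5 PET oral swabs (log2 4.44 ± 1.85, adjusted p = 0.689). Corynebacterium differed by -1.09 ± 0.73 (adjusted p = 0.868). Collinsella differed by 0.61 ± 0.78, with PET library 2 far above the others at 0.566%.

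In stool no member passed at either time. After 1 week 0 genera (0.0%) passed in edgeR, with 11 at an unadjusted p under 0.05, and at day 28 0 (0.0%), with 9. Enterorhabdus differed between arms by 0.40 ± 0.49 after 1 week (adjusted p = 0.762) and 0.53 ± 0.44 at day 28 (adjusted p = 0.809). Its medians were 0.0957% in control and 0.161% in PET stool after 1 week, and 0.145% and 0.159% at day 28. Parvibacter, DNF00809 and unclassified Eggerthellaceae were each found in 2 to 5 libraries of every stool group, with adjusted p of at least 0.814.

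Collinsella was the stool member with the lowest unadjusted p. After 1 week it had 26, 4, 8, 0, 14 and 243 counts in PET libraries 1 to 6 and none in control stool. Library 6 reached 0.0224%, and the others stayed at or below 0.00411%. The pooled share was at least 69.1-fold higher, or 18.4-fold without library 6 (log2 7.50 ± 1.88, unadjusted p = 0.00327, adjusted p = 0.367). At day 28 it was found in 2 control libraries, at up to 0.0198%, and in 1 PET library, with 7 counts. The difference thus did not pass at either time.

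The change of stool with time was fitted over all 24 stool libraries, where 7 members of 145 genera were tested. No genus passed in control stool (0.0%), in PET stool (0.0%) or for the difference of the changes between arms (0.0%), with 27, 41 and 35 genera at an unadjusted p under 0.05. These are edgeR's counts. DESeq2 called 4, 12 and 1 genera in that order, limma 0, 13 and 0, edgeR's stricter filter 0, 6 and 0, and edgeR without the 4 separately numbered libraries 1, 1 and 0. No member was among them. Enterorhabdus changed by 0.08 ± 0.46 in control and 0.36 ± 0.46 in PET stool on the log2 scale (adjusted p = 0.945 and 0.728). For Collinsella the difference of the changes was -11.21 ± 3.24 (unadjusted p = 0.00256, adjusted p = 0.0627), which fell short of the threshold and rests on counts in 8 of 24 libraries.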

How the data were processed

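The V3-V4 part of bacterial 16S rRNA genes was sequenced in pairs in 60 mouse libraries, per the labels' protocols. The deposited feature table holds counts, whole reads per feature without normalization, and was built from a biom file per the file headers. Cutadapt, Bowtie2 and mouse build GRCm39 appear in the submitters' processing notes. Which denoiser, classifier or database was used is not given in the sources used here. Each feature's lineage comes with a deposited classifier confidence, a fraction between 0.701 and 1 for the members (median 0.993, with 273 of 371 at 0.9 or more).

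Shares were taken over the 7922 prokaryote features, 99.3% of all counts. Counts were summed by genus, or by the lowest named rank as "unclassified". Genera with 10 counts in all and a count in 3 libraries of a fit were tested with edgeR 4.0.16 (quasi-likelihood, TMM), adjusted by Benjamini-Hochberg over all genera at a threshold of 0.05. Where no tool is named, an adjusted p is edgeR's. The code was tested on simulated counts. Alternatives were TMMwsp, library totals, DESeq2 1.42.0, limma 3.58.1 on centred log ratios (pseudocount 0.5), no low count filter, a stricter filter (50 counts, 6 libraries), a classifier confidence of at least 0.9, control libraries alone, each library left out, and leaving out 4 separately numbered libraries. Intervals and floors (3 counts) cover counting error only, because PCR reads that carry no molecular identifier can repeat 1 molecule.

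Named genera were the 10 of highest mean share, the 5 highest per sample type, all past the threshold, and 5 genera named in the membership rule. The members, habitat lists and companion lists were chosen with earlier results of these data known. Features are lettered within a genus.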

Additional observations from a re-analysis of the deposited data

Results flagged for a closer look

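Libraries were looked at again where, in a group of 6, the gap from the highest or lowest value to its neighbour , divided by the range of the group, exceeded Dixon's 95% critical value. Of 62 group values 26 met this, in 13 libraries, most of them as the highest of their group. The critical value gives a rate of about 1 in 20 for normally distributed data only. These shares are skewed and hold many zeros, so that rate does not apply and no excess over chance can be read. Many of the values come from the same library, so they are not separate events.

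In the gut, control colon library 2 was the highest of its group for all members and for Coriobacteriia (1.76% each), Enterorhabdus (1.56%) and Collinsella (0.143%). PET colon library 5 was the highest of its group for Coriobacteriia (0.595%) and Collinsella (0.297%). PET stool library 2 after 1 week was the lowest of its group for all members and for Coriobacteriia (0.104% each), and PET stool library 6 of that time was the highest for Collinsella (0.0224%).

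In the mouth, control oral swab library 5 was the highest of its group for all members (0.773%), class Actinobacteria (0.709%), Corynebacterium (0.282%), Cutibacterium (0.154%) and Rothia (0.103%). Control oral swab library 2 was highest for Enterorhabdus (0.0972%). PET oral swab library 5 was highest for class Actinobacteria (0.611%) and Enterorhabdus (0.0438%), and PET oral swab library 2 for Coriobacteriia (0.604%) and Collinsella (0.566%).

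In lung, control library 4 was the highest of its group for Cutibacterium (0.974%), Rothia (0.742%) and Olsenella (0.209%), and control library 1 for Corynebacterium (3.20%). PET lung library 1 was highest for Actinomyces (1.56%), PET library 4 for Olsenella (1.34%) and PET library 6 for Enterorhabdus (0.407%). The cause of these values was not tested.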

How the results depend on the processing

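No paired analysis was possible because the labels give no link between libraries and mice, across arms, sites or times. All 8 counts of members past the threshold for exposure or time kept their value under every alternative, except exposure in colon. There the count of 2 became 0 with limma, 0 with the stricter filter (2 members tested) and 0 without the 3 PET colon libraries richest in oral genera (3 members tested), a setting chosen after seeing the data. For colon against stool the count of 3 became 8 with DESeq2, 6 with limma, 1 with no low count filter and 0 in control libraries alone. For lung against stool 24 became 13 with DESeq2 and 12 with limma, and for oral swab against stool 15 became 9 with limma. For lung against colon 17 became 6 with DESeq2, 5 with limma and 11 in control libraries alone, and for oral swab against colon 5 became 3 with limma and 3 in control libraries alone. For lung against oral swab 13 became 20 with library totals, 3 with DESeq2, 5 with limma, 7 with no low count filter, 8 with the stricter filter, 7 at a classifier confidence of at least 0.9 and 1 in control libraries alone. Leaving out 1 library gave 2 to 2 members for exposure in colon, 2 to 3 for colon against stool, 20 to 25 for lung against stool, 12 to 15 for oral swab against stool, 13 to 19 for lung against colon, 4 to 8 for oral swab against colon, 6 to 16 for lung against oral swab and 0 to 0 for the rest. Signs turned for unclassified Microbacteriaceae in lung against colon (-0.067 with limma), Cutibacterium in lung against oral swab (-0.20 with no low count filter, -0.75 in control libraries alone) and a label of the uncultured class with a clone name in that contrast (-0.42 in control libraries alone). Over 79 genus results and 4369 refitted values, 4133 kept direction and side of the threshold, 232 lost the threshold and 4 turned. Most of these values come from fits that left out 1 library. Fewer calls stayed past the threshold under every alternative setting. They were 7 of 24 for lung against stool, 5 of 15 for oral swab against stool and 3 of 17 for lung against colon. For oral swab against colon they were 2 of 5, and for lung against oral swab 1 of 13. None did for colon against stool or for exposure in colon. The 43 group shares compared moved by less than 1 SD at a classifier confidence of at least 0.9 and with all features as denominator. Leaving out the library with the highest share was also tried. Dropping 1 library of a group cannot move its mean by 1 SD, so that measure could not show a change. The control colon mean of all members fell to 0.0844% in that setting. Fewer genera or samples enter the filters and the control arm alone; for the other settings the cause was not tested. Shallow lung libraries, from 10543 counts, limit what can be seen of rare members there.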

Other observations

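The number of member genera in a library did not follow depth across sites. Its median was 4 in stool after 1 week, 3 in day 28 stool, 4.5 in colon, 16 in lung and 10 in oral swabs. Lung libraries, with a median total of 61082 counts, were the shallowest, and stool libraries at day 28, with 446254, the deepest.

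Some species labels of the deposited classifier sit oddly with their genus. A feature placed in Actinomyces carries the species label Mycobacterium tuberculosis, in 1 lung library, and 2 features placed in Rothia carry the label Actinomyces sp., with 236 counts in 2 lung libraries. Parvibacter feature A carries the label Adlercreutzia caecicola and Enterorhabdus feature B the label Adlercreutzia mucosicola, names under which taxonomists have placed these species. Results here use the genus rank of the lineage.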
